A study of Mus musculus with 6 samples.

Results

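The genes of the citrate cycle and of mitochondrial fatty acid oxidation were followed in the mouse ovary after injection of M1, a small phenylhydrazone used to promote the fusion of mitochondria. The set holds 37 of the 55536 genes of the count table. They were chosen by symbol from textbook pathways, with earlier results of these data known. It comprises 13 genes of the citrate cycle, 4 of the pyruvate dehydrogenase complex, the 4 pyruvate dehydrogenase kinases and 16 of fatty acid oxidation. All 37 passed the filter on low counts, among 17499 genes tested.

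RNA-seq libraries were made from poly(A) RNA of the ovaries of 3 Control mice and 3 M1 mice, with both ovaries of a mouse combined into 1 library. All were female ICR mice, an outbred strain, labelled as 10 weeks old, with ovaries taken at 20 h on the day of proestrus, the stage of the estrous cycle that precedes ovulation. The M1 mice received 10 mg/kg intraperitoneally at 9 h and at 16 h, from a 1 mg/ml solution whose vehicle was PBS (85%) with Tween80 (10%) and DMSO (5%). The labels describe the Control samples as normal and the M1 samples as cycle disrupted. The same injection hours are listed for the Control mice, but what the Control mice were injected with is not given in the sources used here. The whole organ was sequenced, so the values hold all of its cell types together.

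Pyruvate enters the mitochondrion and is converted to acetyl-CoA by the pyruvate dehydrogenase complex, which its kinases switch off by phosphorylation. Fatty acids enter as carnitine esters and are shortened to acetyl-CoA by rounds of dehydrogenation, hydration, a further dehydrogenation and thiolysis. The citrate cycle oxidizes the acetyl-CoA from both sources, and the electrons pass to the respiratory chain as NADH, through succinate dehydrogenase, or through the electron transfer flavoprotein. In the ovary, mitochondria also carry out the first step of steroid synthesis, and beta oxidation is known to be needed by mouse oocytes as they mature.

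The unit of level is CPM, a gene's counts relative to the size of its library after TMM normalization. Levels of different genes are set side by side only as the authors' TPM, which also divides by gene length. The groups were tested with edgeR's quasi-likelihood test on the counts. Called genes are those with a fold change above 1.5 and an adjusted p (Benjamini-Hochberg, over all 17499 genes) under 0.05, the thresholds of the study. Log2 fold changes are M1 over Control, and n = 3 mice per group throughout.

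None of the 37 genes was called by edgeR, where the share of all tested genes called in either direction was 0.00571% (1 gene). The members' log2 fold changes ran from -0.59 (Pdk3) to 0.85 (Etfb), and 35 of the 37 (94.6%) lay within 1.5-fold, against 82.6% of all genes. Their median was 0.06 with 22 positive and 15 negative values, beside 0.00 for all genes. The sign of this median turned with the unit: on log2(TPM + 1) it was -0.13 with 11 positive and 26 negative values, but there the median of all genes was itself shifted to -0.15, and 21 members lay above it and 16 below. At an unadjusted p under 0.05, 5 members were higher in M1 (7.7% of all genes, 13.5% of the members) and 1 was lower (9.17% of all genes, 2.7% of the members). The 5 were Etfb, Eci1, Hadh, Fh1 and Acadl, and the 1 was Pdk3. In 10 members every M1 mouse lay above every Control mouse in CPM, a pattern seen in 11.4% of all genes. Of these 10, only Etfb also stayed apart in TPM, where the median of all genes was shifted as given above. In 1 member every M1 mouse lay below every Control mouse, beside 11.2% of all genes.

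**Figure D1:**
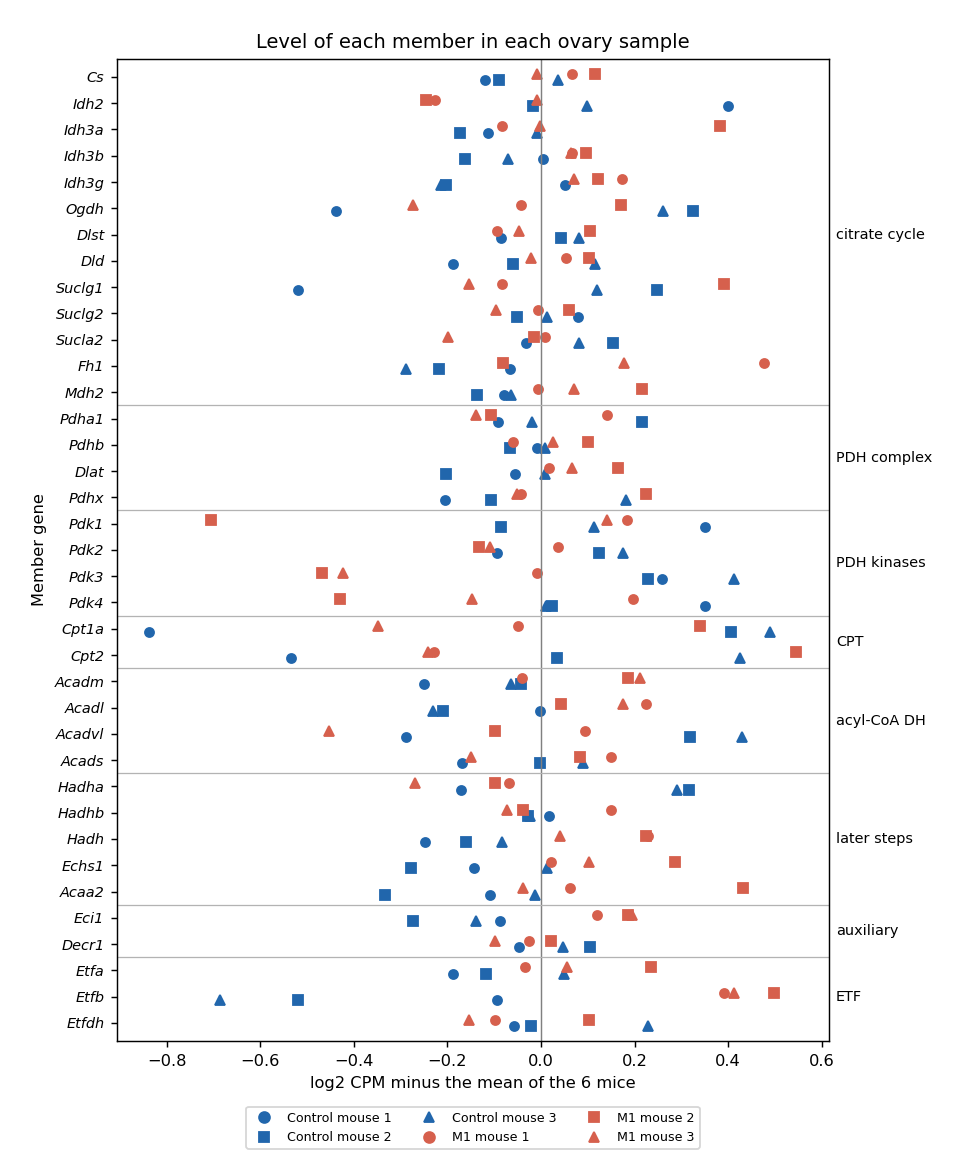
Level of each of the 37 members in each ovary sample, drawn as log2 CPM less its mean over the 6 mice (x axis), with the genes grouped by role (y axis; DH, dehydrogenase; CPT, carnitine palmitoyltransferases; ETF, electron transfer flavoprotein and its oxidoreductase). In 10 members all 3 red M1 points lie right of all 3 blue Control points, and in Pdk3 all lie left of them, while Cpt1a shows Control mouse 1 far below the other Control mice.

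DESeq2, the tool of the study, called 1 member higher and 0 lower, where it called 1.2% of the 15870 genes with an adjusted p as higher and 1.35% as lower. The member was Etfb. limma-voom gave an adjusted p under 0.05 to 0 members and to only 1 of all 17499 genes. It gave an unadjusted p under 0.05 to 5 members that were higher (8.21% of all genes) and 1 that was lower (8.52%).

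Control mouse 1 was lower than the other Control mice in some marker genes of several cell types and in several members. It was the lowest Control mouse in 2 of 6 theca and steroidogenic markers (Star and Cyp11a1) and in 4 of 5 corpus luteum markers (Akr1c18, Ptgfr, Scarb1 and Parm1), but not in Cyp17a1, Hsd3b1, Lhcgr, Insl3 or Prlr. Star, which moves cholesterol into the mitochondrion, was at 699 CPM in Control mouse 1 and at 4407 and 4242 CPM in the other Control mice. Akr1c18, a progesterone-degrading enzyme of the corpus luteum, was at 3.08, 2394 and 1125 CPM. The summed CPM of 5 corpus luteum markers was 3048 in Control mouse 1, 5298 to 8389 in the other Control mice and 4489 to 11589 in the M1 mice. Between the groups, 1 of these 5 (Prlr, log2 fold change 0.60) had an edgeR unadjusted p under 0.05, with every M1 mouse above every Control mouse. None of the 6 theca and steroidogenic markers had such a p, although Hsd3b1 (0.51) was also higher in every M1 mouse. Negative values were found in 1 of the 5 and 2 of the 6. Control mouse 1 was also the lowest Control mouse in 5 of 5 macrophage, 4 of 5 endothelial, 4 of 6 stromal and 2 of 8 granulosa markers. The granulosa markers summed to 3462 CPM in Control mouse 1, and to 2389 and 2740 CPM in the other Control mice. In whole ovaries, fewer cells of a type and less RNA per cell cannot be told apart. Control mouse 1 was the lowest of its group in 19 of the 37 members, and M1 mouse 3 was the lowest of its group in 20. Without Control mouse 1, edgeR called 1.28% of 17994 genes higher and 3.07% lower, and 1 member, Etfb, was called. At an unadjusted p under 0.05, 5 members were then higher (12.3% of all genes), namely Etfb, Eci1, Acadl, Idh3g and Fh1, and 3 were lower (14.6%), namely Hadha, Pdk3 and Acadvl.

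Other lists of cell type markers were checked as well. The oocyte markers summed to 386 to 735 CPM in Control and 268 to 436 CPM in M1, and 4 of the 8 had an unadjusted p under 0.05, all lower in M1. Control mouse 1 had the highest sum, and without it 1 of these 4 (Kit) had an unadjusted p under 0.05. Of the stromal markers, 5 of 6 had a negative log2 fold change and 1 (Pdgfra, with every M1 mouse below every Control mouse) an unadjusted p under 0.05, or 3 without Control mouse 1. All 6 smooth muscle and pericyte markers had a negative value, none with an unadjusted p under 0.05. The red blood cell markers summed to 324 CPM in M1 mouse 1 and to 22.0 to 124 CPM in the other mice. Of the 6 white adipocyte markers only Plin1 and Fabp4 passed the filter on counts, and the list summed to 18.8 to 32.1 CPM in Control and 10.2 to 17.9 CPM in M1. Adipoq had at most 4 counts and Ucp1, the defining gene of brown fat, at most 4. The skeletal muscle gene Myh4 had 0 counts in every library, which allows up to 3 counts, and Ckm had at most 4. The part of the oocyte, luteal, stromal, fat and blood RNA in the members' values was not tested. Across the libraries, the genes encoded by the mitochondrial genome took 3.82% to 5.14% of the counts in Control and 5.98% to 7.35% in M1, whereas the members together took 0.444% to 0.483% and 0.452% to 0.489%.

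Per gene length, the most abundant member was Acaa2, the thiolase of the last step of mitochondrial beta oxidation, with a mean of 366 TPM over the 6 mice. Acadl (221 TPM), Etfa (213 TPM), Hadh (195 TPM) and Mdh2 (189.9 TPM) came next. The ranges of neighbours in this order overlapped over the mice from Acadl on, and Acaa2 stood above them all. The least abundant were Pdk1 (13.6 TPM), Pdk4 (17.5 TPM) and Pdk3 (24.3 TPM). These 3 kinases lay below the 4 genes of the pyruvate dehydrogenase complex, whose means were 35.2 to 81.8 TPM.

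**Figure D2:**
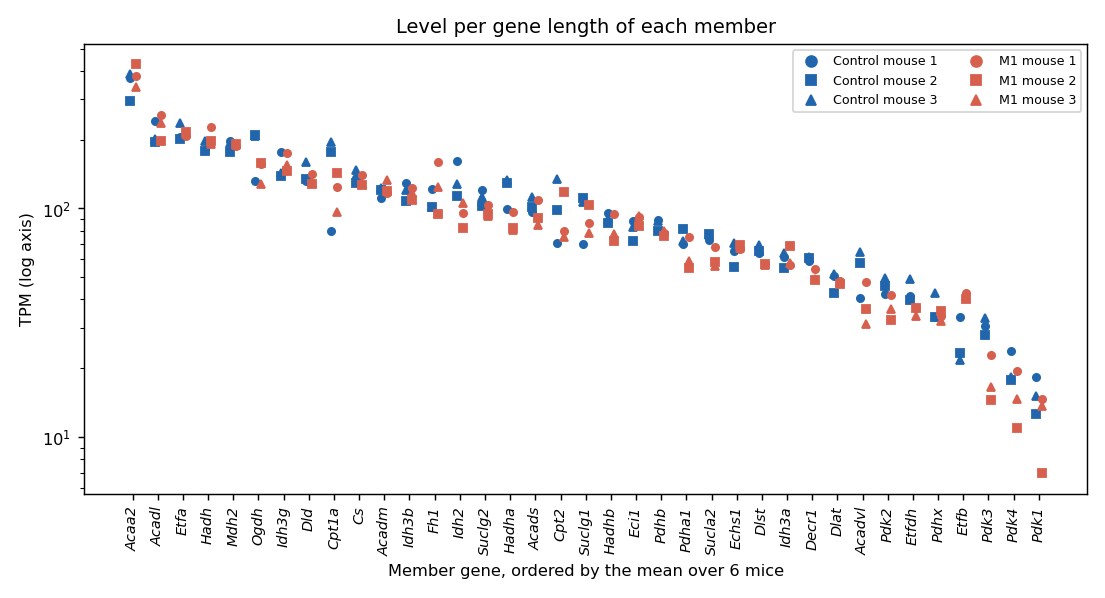
TPM of each member in each mouse (y axis, log scale), ordered by the mean over the 6 mice (x axis). Means run from 366 TPM for Acaa2 to 13.6 TPM for Pdk1, and 3 of the 4 kinases are at the low end in both groups.

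No gene of the citrate cycle itself was called by edgeR. In 3 of the 13, every M1 mouse lay above every Control mouse, beside 11.4% of all genes. Citrate synthase, Cs, joins acetyl-CoA and oxaloacetate at the entry of the cycle. It was at 224, 228 and 249 CPM in Control and 254, 263 and 241 CPM in M1. The groups overlapped, with a log2 fold change of 0.11 (SE 0.12, edgeR adjusted p = 0.648), and the sign was negative on log2(TPM + 1) (-0.07).

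Both kinds of mitochondrial isocitrate dehydrogenase are among the members. Idh2, which makes NADPH, was at 119, 89.2 and 96.7 CPM in Control and 77.2, 76.2 and 89.8 CPM in M1. The M1 mice were at the lower end, and M1 mouse 3 lay just above Control mouse 2. Idh2 had a log2 fold change of -0.33 (SE 0.14, edgeR adjusted p = 0.306), or -0.20 without Control mouse 1, the highest sample. Idh3a, Idh3b and Idh3g encode the subunits of the NAD-dependent enzyme of the cycle. Idh3g, a regulatory subunit, was at 136, 114 and 113 CPM in Control and 147, 142 and 137 CPM in M1. All M1 mice lay above all Control mice, M1 mouse 3 by a narrow margin, and the log2 fold change was 0.24 (SE 0.12, edgeR adjusted p = 0.351). Idh3b did not overlap between the groups either, with 119 ± 6.89 CPM in Control and 133 ± 1.61 CPM in M1 (mean ± SD). The catalytic subunit gene Idh3a was at 89.4 ± 5.22 CPM in Control and 103 ± 18.5 CPM in M1, where M1 mouse 2 alone lay far above the rest.

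The 2-oxoglutarate dehydrogenase complex, which makes succinyl-CoA, is built from the products of Ogdh, Dlst and Dld. Ogdh was at 204 CPM in Control mouse 1 and at 347 and 332 CPM in the other Control mice, and it ran from 229 to 312 CPM in M1. Its log2 fold change was -0.13 (SE 0.22) over all mice and -0.33 without Control mouse 1, with an edgeR adjusted p of 0.806 and 0.223. Dlst, the succinyltransferase, and Dld, the dehydrogenase it shares with pyruvate dehydrogenase, had log2 fold changes of -0.02 and 0.08. The succinyl-CoA ligase subunit genes gave 0.09 (Suclg1), -0.03 (Suclg2) and -0.13 (Sucla2). Suclg1 was another member that was low in Control mouse 1, at 92.0 CPM against 157 and 143 CPM in the other Control mice.

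Fh1 and Mdh2 carry out the last steps of the cycle. Fh1, fumarate hydratase, was at 117, 105 and 100.2 CPM in Control and 170.1, 116 and 138 CPM in M1. Control mouse 1 and M1 mouse 2 were at the same level, and M1 mouse 1 was the highest of all. This gave a log2 fold change of 0.40 (SE 0.16, edgeR adjusted p = 0.28). Mdh2, malate dehydrogenase, did not overlap between the groups, with 198 ± 5.11 CPM in Control and 226 ± 17.8 CPM in M1 and a log2 fold change of 0.19 (SE 0.12, edgeR adjusted p = 0.437). In TPM its groups did overlap, as Control mouse 1 was at 198 TPM and the M1 mice were at 188 to 191 TPM.

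The genes of the pyruvate dehydrogenase complex differed little between the groups. Pdha1 and Pdhb encode the subunits of its first enzyme, Dlat the acetyltransferase and Pdhx the protein that holds the third enzyme. Their log2 fold changes were -0.07, 0.04, 0.16 and 0.08, with edgeR adjusted p-values of 0.48 to 0.856. In Dlat alone every M1 mouse lay above every Control mouse, with 69.0 ± 5.11 CPM in Control and 77.4 ± 4.04 CPM in M1. The 3 positive values turned negative on log2(TPM + 1), at -0.14 for Pdhb, -0.02 for Dlat and -0.09 for Pdhx. Pdha1 shares 16.2% of its exon bases with Map3k15 on the opposite strand, so its level is less certain.

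All 4 pyruvate dehydrogenase kinases had a negative log2 fold change, with a median of -0.22. Pdk3 was at 22.2, 21.8 and 24.7 CPM in Control and 18.4, 13.4 and 13.8 CPM in M1. Every M1 mouse lay below every Control mouse, and M1 mouse 1 was nearest to the Control mice. The log2 fold change of Pdk3 was -0.59 (SE 0.17), with an unadjusted p of 0.00969 and an adjusted p of 0.209 in edgeR's quasi-likelihood test over all genes. It ran from -0.74 to -0.50 when each library was left out in turn.

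The other kinases had a smaller difference than their spread. Pdk1, a target of hypoxia signalling in many tissues, was at 40.4, 29.9 and 34.3 CPM in Control and 36.0, 19.4 and 34.9 CPM in M1. M1 mouse 2 was low and the other M1 mice lay among the Control mice, and the log2 fold change of -0.21 (SE 0.24) became 0.03 without M1 mouse 2. Pdk2, the kinase found in most tissues, was at 37.9, 44.1 and 45.7 CPM in Control and 41.5, 36.9 and 37.6 CPM in M1. These overlapped, as Control mouse 1 was close to the M1 mice, with a log2 fold change of -0.14 (SE 0.12). Pdk4, which fasting and fatty acids induce in muscle and liver, was at 23.8, 19.0 and 18.8 CPM in Control and 21.4, 13.8 and 16.8 CPM in M1. Here M1 mouse 1 lay above Control mice 2 and 3, and the log2 fold change was -0.24 (SE 0.20). The edgeR adjusted p-values of these 3 kinases were 0.571 to 0.694. The counts of Pdk3 per count of Pdk2 were 0.493 to 0.586 in Control and 0.364 to 0.444 in M1, which did not overlap. The 4 signs were also negative with RLE size factors, with the gene length offset and on log2(TPM + 1), where their median was -0.40 and each lay below the median of all genes.

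**Figure D3:**
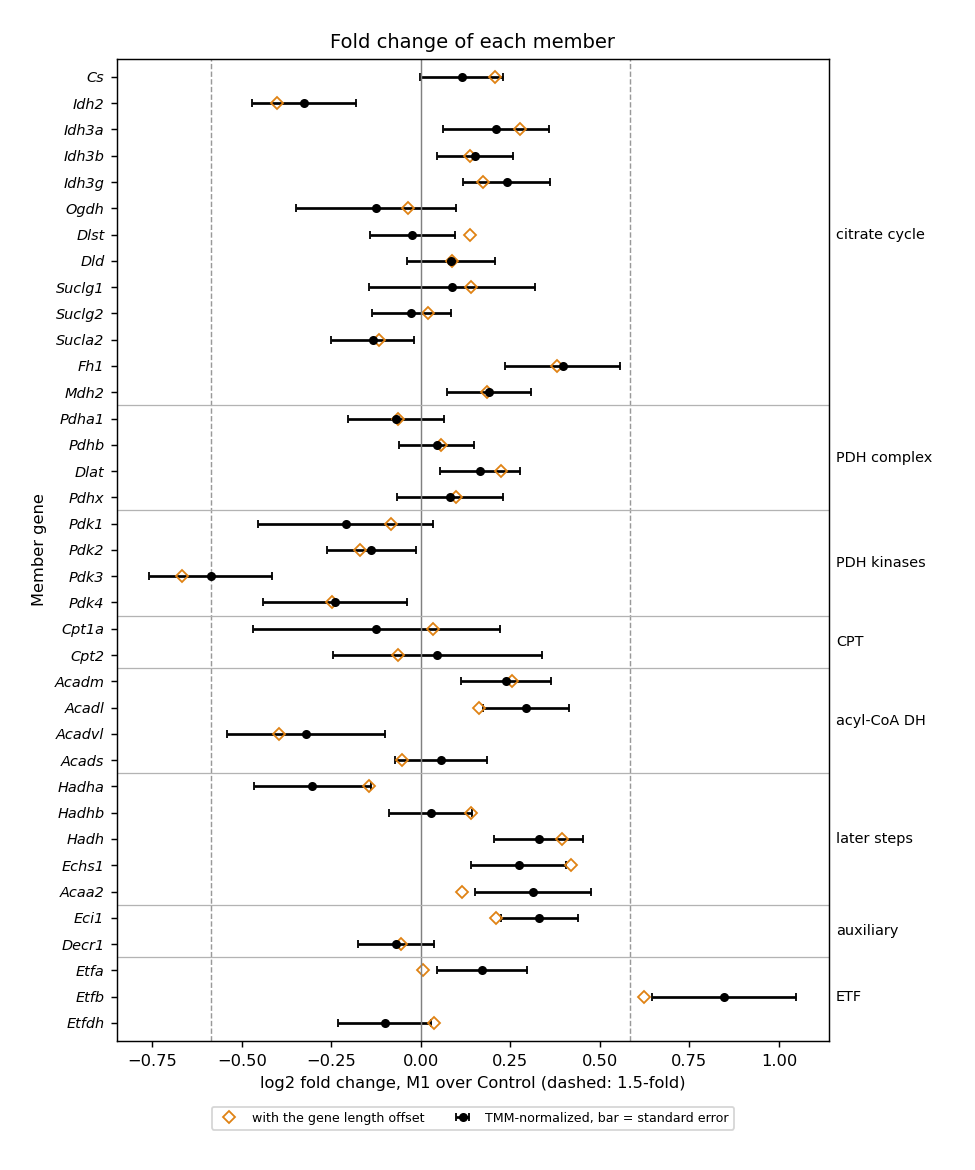
Log2 fold change of each member, M1 over Control (x axis), with genes grouped by role (y axis); black points and bars are the TMM-normalized estimates and their standard errors, open diamonds the estimates with an offset for gene length, and dashed lines mark 1.5-fold. Etfb at 0.85 and Pdk3 at -0.59 are the ends of the range, all 4 kinases are left of 0, and a diamond on the other side of 0 from its point marks a sign that turned.

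Fatty acid oxidation opens with the carnitine palmitoyltransferases, which carry long-chain acyl groups across the mitochondrial membranes. Cpt1a, the regulated enzyme of the outer membrane, was at 173 CPM in Control mouse 1 and at 409.5 and 434 CPM in the other Control mice. In M1 it was at 299, 391 and 243 CPM. The spread inside Control, 2.51-fold from lowest to highest, was the widest of any member, and all M1 mice lay within it. The log2 fold change was -0.12 (SE 0.34, edgeR adjusted p = 0.879) over all mice, -0.44 without Control mouse 1 (adjusted p = 0.221) and 0.03 with the gene length offset. Cpt2, its partner on the inner membrane, was at 48.2, 71.5 and 93.6 CPM in Control and 59.6, 101.8 and 59.0 CPM in M1. Its log2 fold change was 0.05 (SE 0.29), and it was -0.17 without Control mouse 1. Both genes were lowest in Control mouse 1, as were Ogdh and Suclg1, which is also the mouse with the lowest Star and Akr1c18. The part of the steroidogenic cells, or of any other cell type, in these values was not tested.

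**Figure D4:**
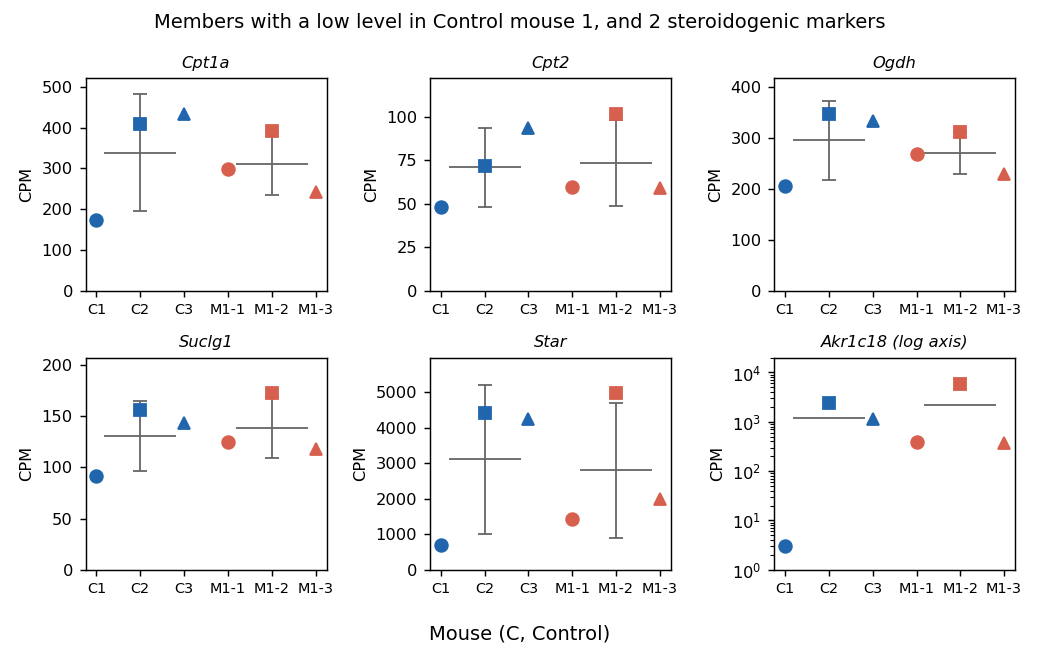
CPM of the members Cpt1a, Cpt2, Ogdh and Suclg1 and of the markers Star and Akr1c18 (y axis; Akr1c18 on a log axis) in each Control (C1 to C3) and M1 mouse (x axis); horizontal lines are group means and bars the SD over 3 mice, not drawn for Akr1c18. Control mouse 1 is the lowest of the 6 mice in every panel, at 173 CPM for Cpt1a and 3.08 CPM for Akr1c18.

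The acyl-CoA dehydrogenases start each round of oxidation and differ in the chain length they accept. Acadl, the long-chain enzyme, was at 138, 119 and 118 CPM in Control and 161, 142 and 156 CPM in M1. All M1 mice lay above all Control mice, with Control mouse 1 and M1 mouse 2 close to each other. Acadl had a log2 fold change of 0.29 (SE 0.12, edgeR adjusted p = 0.287), and 0.16 with the gene length offset. In TPM its groups overlapped, as Control mouse 1 was at 242 TPM and M1 mouse 2 at 197 TPM. Acadm, the medium-chain enzyme, was at 124, 143 and 141 CPM in Control and 143, 168 and 170.5 CPM in M1. M1 mouse 1 was level with the upper Control mice and the other M1 mice lay above them, with a log2 fold change of 0.24 (SE 0.13, edgeR adjusted p = 0.368). Acads, the short-chain enzyme, gave 0.06 (SE 0.13). Acadvl, the very-long-chain enzyme of the inner membrane, was at 42.9 ± 10.6 CPM in Control and 34.4 ± 6.38 CPM in M1, a log2 fold change of -0.32 (SE 0.22) over all mice and -0.51 without Control mouse 1 (adjusted p = 0.118). Acadvl shares 42.9% of its exon bases with Dvl2 on the opposite strand, so its level is uncertain.

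Hadha and Hadhb encode the subunits of the mitochondrial trifunctional protein, which carries out the later steps for long chains. Hadha was at 246, 345 and 338 CPM in Control and 264, 259 and 229.9 CPM in M1. Control mouse 1 lay among the M1 mice and the other Control mice lay above them all. The log2 fold change of Hadha was -0.30 (SE 0.16, edgeR adjusted p = 0.374), and -0.45 without Control mouse 1 (adjusted p = 0.0791). Hadhb was at 175 ± 3.03 CPM in Control and 179 ± 15.2 CPM in M1, a log2 fold change of 0.03 (SE 0.12). Counts of Hadha per count of Hadhb were 1.38, 1.99 and 1.95 in Control and 1.35, 1.505 and 1.37 in M1. Control mouse 1 and the M1 mice were thus at one level, and Control mice 2 and 3 stood above it.

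The pair is shown in sequence because the GENCODE starts of both genes flank a single stretch and yet their counts varied differently. On chromosome 5, Hadha (30118304 to 30155162, minus strand) and Hadhb (30155248 to 30184593, plus strand) lie head to head, with 85 bases between their annotated starts. The stretch, from RefSeq on GRCm38.p6, is chr5:30155163-30155247 on the plus strand, written from the Hadha side to the Hadhb side, and it holds none of the motifs named further on.
Hadha-Hadhb gap: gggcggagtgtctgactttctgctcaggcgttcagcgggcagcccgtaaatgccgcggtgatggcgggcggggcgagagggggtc

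The soluble enzymes of the later steps had positive log2 fold changes. Echs1, the enoyl-CoA hydratase, was at 154, 140.0 and 171 CPM in Control and 172, 207 and 182 CPM in M1. Control mouse 3 and M1 mouse 1 were nearly equal, and the log2 fold change was 0.27 (SE 0.13, edgeR adjusted p = 0.338). Hadh, the hydroxyacyl-CoA dehydrogenase for medium and short chains, was at 255, 271 and 286 CPM in Control and 355, 354 and 312 CPM in M1. Its groups did not overlap, and the log2 fold change was 0.33 (SE 0.12), with an unadjusted p of 0.0309 and an adjusted p of 0.259 in edgeR's test. In TPM the groups of Hadh overlapped, as Control mouse 3 was at 197 TPM and M1 mouse 3 at 191 TPM. Acaa2, the thiolase, was at 159.9, 137 and 171 CPM in Control and 180.2, 233 and 168 CPM in M1. M1 mouse 2 stood high, M1 mouse 3 lay within Control, and the log2 fold change was 0.31 (SE 0.16, edgeR adjusted p = 0.36).

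Unsaturated fatty acids need auxiliary enzymes before a round can go on. Eci1, an enoyl-CoA isomerase that moves the double bond, was at 53.2, 46.7 and 51.3 CPM in Control and 61.4, 64.2 and 64.7 CPM in M1. The groups were apart in CPM with little spread inside M1. The log2 fold change was 0.33 (SE 0.11), with an unadjusted p of 0.016 and an adjusted p of 0.232 in edgeR's test. It was 0.21 with the gene length offset. In TPM the groups of Eci1 overlapped, as Control mouse 1 was at 88.0 TPM and M1 mouse 2 at 83.9 TPM. Decr1, the dienoyl-CoA reductase, was at 68.7 ± 3.63 CPM in Control and 65.5 ± 2.73 CPM in M1 (log2 fold change -0.07, SE 0.11).

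The acyl-CoA dehydrogenases hand their electrons to the electron transfer flavoprotein, a dimer of the Etfa and Etfb products, and Etfdh passes them on to ubiquinone. Etfb had the largest log2 fold change of the 37 genes. It was at 11.1, 8.30 and 7.39 CPM in Control and 15.6, 16.8 and 15.8 CPM in M1. The M1 mice lay close together and all above the Control mice, of which Control mouse 1 was the highest. The means were 8.94 ± 1.96 CPM in Control and 16.1 ± 0.637 CPM in M1. Its log2 fold change was 0.85 (SE 0.20), with an unadjusted p of 0.00337 and an adjusted p of 0.195 in edgeR's test, so Etfb was not called. The adjusted p was 0.0222 in DESeq2, and it was 0.0389 in edgeR without Control mouse 1, where the log2 fold change was 1.03. With the gene length offset it was 0.62, since Etfb, at 1164 bases, is the shortest member.

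Its partner did not show the same difference. Etfa was at 115 ± 9.86 CPM in Control and 129.6 ± 12.5 CPM in M1, a log2 fold change of 0.17 (SE 0.13) that was -0.01 on log2(TPM + 1). Etfdh was at 95.8 ± 10.7 CPM in Control and 89.3 ± 8.56 CPM in M1 (-0.10, SE 0.13). Counts of Etfb per count of Etfa were 0.104, 0.0739 and 0.0586 in Control and 0.131, 0.117 and 0.125 in M1. The M1 mice were again all above the Control mice. Per gene length Etfb was at 33.8 TPM and Etfa at 213 TPM, and the ratio per length ran from 0.0923 to 0.207 over the 6 mice, although the proteins form a dimer. Of the exon bases of Etfb, 58.2% are shared with other annotated genes, with 617 of its 1164 bases in Gm45233 on the same strand and 61 in the microRNA gene Mir7051. Gm45233 had 0 or 1 counts in each library. How reads on shared bases were counted is not given in the sources used here, so both the level of Etfb and its ratio to Etfa are uncertain.

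The stretches just before the starts of Etfb and Etfa are shown because these genes encode the subunits of the same dimer and had unlike fold changes. They are from RefSeq on GRCm38.p6 and hold the 100 bases before each RefSeq start, 5′ to 3′ in the direction of transcription, chr7:43443972-43444071 on the plus strand for Etfb and chr9:55512244-55512343 on the minus strand for Etfa. Capitals mark a match to the NRF1 motif, which is GCGCA and GCGC with any 1 base between them, where NRF1 is a factor known for binding promoters of nuclear genes of mitochondrial proteins.
Etfb: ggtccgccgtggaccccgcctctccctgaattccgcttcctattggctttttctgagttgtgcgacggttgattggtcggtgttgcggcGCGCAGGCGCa
Etfa: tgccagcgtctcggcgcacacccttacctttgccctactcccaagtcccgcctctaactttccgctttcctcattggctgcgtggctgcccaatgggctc

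Both strands of the RefSeq promoters, from 250 bases before to 50 after each start, were searched for 4 motifs. A promoter was found for 34 of the 37 members, all except Idh3a, Acaa2 and Decr1, and for 27025 genes in all. The NRF1 motif was in 4 members (Dld, Etfb, Etfdh and Sucla2), beside 5.19% of all genes. The cAMP response element TGACGTCA was in Mdh2 and Ogdh, beside 2.03% of all genes. The estrogen-related receptor element TCAAGGTCA (0.466% of all genes) and the PPAR element, a repeat of AGGTCA with any 1 base between the copies (0.0481%), were in no member's window. A match is only a run of letters and says nothing of binding.

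The members also varied among mice of the same group. From the lowest to the highest mouse, the median member spanned 1.20-fold in Control and 1.18-fold in M1, while the group means differed by a median of 1.12-fold. The span within Control was wider than the fold between the means in 28 of the 37 members, and the span within M1 was wider in 26. A span over 3 mice tends to be wider than a fold between means even without a group difference. The same counts were not made over all genes, so these say nothing particular to the members. Cpt1a had the widest span in Control, 2.51-fold, and Pdk1 the widest in M1, 1.85-fold. M1 mouse 2 was the highest of the 6 mice in 14 members and Control mouse 1 the lowest in 11, the most for any mouse.

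Beside the members, 68 further genes of the same pathways were listed, of which 67 were tested and Cpt1b, the muscle form of Cpt1a, was not. None was called by edgeR. At an unadjusted p under 0.05, 7 were higher in M1 (7.7% of all genes) and 3 lower (9.17%). DESeq2 called 1 higher (1.2% of all genes) and 2 lower (1.35%). Their median log2 fold change was -0.04, with 28 positive and 39 negative values. The 6 with the smallest p are described here. Acacb makes the malonyl-CoA that inhibits the Cpt1 enzymes. It was at 35.4, 33.0 and 40.3 CPM in Control and 20.8, 18.8 and 23.9 CPM in M1, and every M1 mouse lay well below every Control mouse. The log2 fold change of Acacb was -0.78 (SE 0.15, edgeR adjusted p = 0.195, DESeq2 adjusted p = 0.00675). Mpc2, a subunit of the mitochondrial pyruvate carrier, was at 56.7, 48.6 and 53.4 CPM in Control and 70.7, 117 and 98.4 CPM in M1, all above Control. The log2 fold change was 0.85 (SE 0.19, edgeR adjusted p = 0.195, DESeq2 adjusted p = 0.0119), whereas Mpc1, its partner, gave 0.17 (SE 0.15). Pdpr, a regulatory subunit of the phosphatase that reactivates pyruvate dehydrogenase, was at 12.2, 33.1 and 36.4 CPM in Control and 9.94, 8.88 and 6.88 CPM in M1. Control mouse 1 was close to the M1 mice, and the log2 fold change was -1.67 (SE 0.39, edgeR adjusted p = 0.195, DESeq2 adjusted p = 0.00306).

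Pck2, the mitochondrial enzyme that makes phosphoenolpyruvate, had a log2 fold change of 0.48 (edgeR adjusted p = 0.201). Ppara, a nuclear receptor that drives fatty acid oxidation genes in liver, was low in all mice, at 6.94 ± 2.82 CPM in Control and 3.09 ± 0.471 CPM in M1 (-1.16, edgeR adjusted p = 0.209). Mcee, an epimerase that leads propionyl-CoA toward succinyl-CoA, gave 0.66 (edgeR adjusted p = 0.232). The groups did not overlap in Pck2 and Ppara, while Mcee was at 19.3 CPM in both Control mouse 1 and M1 mouse 1. Without Control mouse 1, Acacb and Pdpr were called by edgeR, with adjusted p-values of 0.046 and 0.0239.

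The members were set beside the nuclear subunits of complex I and the enzymes of glycolysis with lactate dehydrogenase, as counts and medians only. Of 36 complex I subunit genes, 33 had a positive log2 fold change, with a median of 0.42. Without the length offset, 26 were higher at an edgeR unadjusted p under 0.05 (7.7% of all genes) and 0 lower (9.17%). The median was 0.27 with the gene length offset. Complex I genes are short, with a median length of 1644 bases against 3861 for the members, and the median log2 fold change of all genes ran from 0.32 in the shortest 10% to -0.16 in the longest 10%. The length of the members was close to that of all tested genes, 3872 bases, and their median was 0.09 with the offset. Of 17 glycolysis genes, 7 had a positive and 10 a negative value, with a median of -0.08. At the same unadjusted p, 3 of them were higher and 1 lower. Whether these lists differ was not tested.

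**Figure D5:**
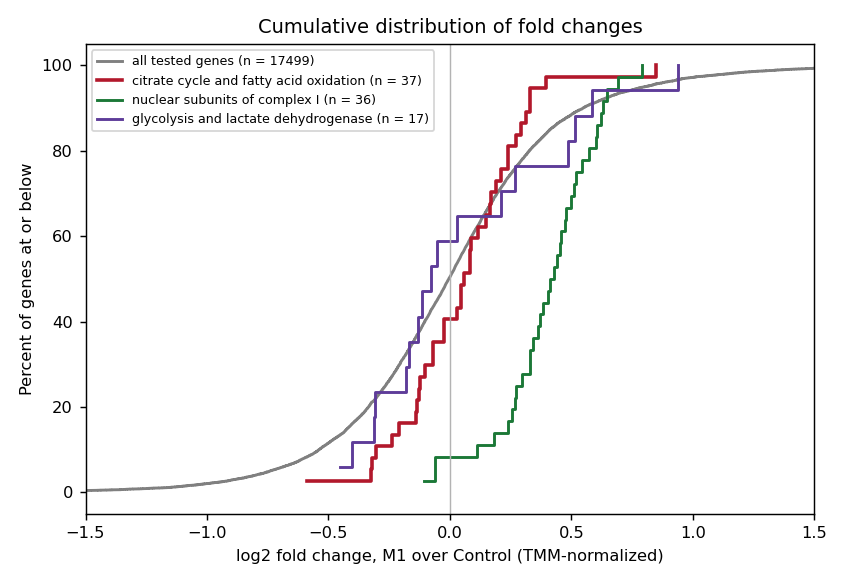
Cumulative percent of genes (y axis) at or below each log2 fold change, M1 over Control (x axis), for all 17499 tested genes, the 37 members, 36 nuclear subunits of complex I and 17 genes of glycolysis and lactate dehydrogenase. The curve of the members crosses its middle at 0.06, near that of all genes at 0.00, while that of complex I crosses at 0.42, or 0.27 with the gene length offset; on log2(TPM + 1) the members' median is -0.13 with all genes at -0.15.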

How the data were processed

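Ovarian libraries of 3 Control and 3 M1 mice were compared, with groups from the sample labels. Per the submitters' processing notes, reads were checked with FastQC and MultiQC, trimmed with Trimmomatic 0.38, aligned with HISAT2 2.1.0 to GRCm38 and counted with featureCounts 2.0.0. All tests used the deposited counts, whole numbers per gene that were not normalized. The deposited TPM, made by the authors from counts and gene lengths, served for levels per length and as an alternative. The deposited FPKM served only to recover gene lengths, which equalled the exon unions of GENCODE vM21 for the named genes. Assigned counts ran from 12536440 to 18651402 per library, which limits the precision of low genes such as Etfb.

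Genes were kept by filterByExpr (minimum count 10, minimum total 15) and tested in R 4.3.3 with edgeR 4.0.16, TMM-normalized, in place of the DESeq2 of the study. The common biological coefficient of variation was 0.257. The scripts were tested on simulated data. Alternatives were RLE size factors, DESeq2 1.42.0, limma-voom (limma 3.58.1), a minimum of 10 counts in every library, no filter beyond 1 count, no fold change minimum, a replicate block, an offset for gene length (lowess span 0.5) with and without the block, log2(TPM + 1) and log2(TPM + 0.1) with limma on genes with a mean of at least 1 TPM, and each library left out.

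The members and lists were chosen with earlier results of these data known. Values in all 6 mice are given for the 12 members with the smallest edgeR p and for Cs, the 4 kinases, Cpt1a and Cpt2, and the 6 other pathway genes with the smallest p are named. Ogdh, Suclg1, the markers of Control mouse 1 and the sequences shown were picked after their values were seen. Of 2 symbols on 2 rows, Nnt and Aldoa, the row with more counts was taken.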

Additional observations from a re-analysis of the deposited data

How the results depend on the processing

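The count of all genes called (1) depended most on the settings: 406 with DESeq2, 155 without a filter, 2 on log2(TPM + 0.1) and 0 to 782 with 1 library left out, 782 being without Control mouse 1. Members called (0) were 1 with DESeq2 and 0 to 1 with 1 library left out, and members with an unadjusted p under 0.05 (6) were 3 to 8. This count did not follow that of all genes throughout. Without Control mouse 1, 5 members were higher and 3 lower, beside 2215 and 2633 of 17994 genes. Without Control mouse 2, 1 member was higher and 2 lower, beside 923 and 926 of 18014 genes. Without Control mouse 3, 3 members were higher and 1 lower, beside 800 and 888 of 18077 genes. Without M1 mouse 1, 2 members were higher and 1 lower, beside 1254 and 1246 of 18009 genes. Other pathway genes called (0) were 3 with DESeq2, 2 without a filter and 0 to 2 with 1 library left out. The members' median (0.06) was -0.13 on both TPM scales and 0.0038 to 0.15 with 1 library left out. The labels do not say whether mice with the same replicate number share a batch. Deviations of same-numbered mice correlated at 0.07, 0.11 and -0.25, and not every mouse correlated best with its own number. With 3 mice per group, these values cannot settle the question. With the replicate block 0 genes were called, with or without the length offset, and 3 members had an unadjusted p under 0.05. The share of all genes at that p with the block is not given here. On both TPM scales, which lower all genes by about 0.15, the sign turned for Cs (-0.067 and -0.068), Idh3b (-0.031 in both), Dld (-0.093 and -0.094), Suclg1 (-0.080 in both), Pdhb (-0.14), Dlat (-0.016 in both), Pdhx (-0.093 and -0.095), Cpt2 (-0.13), Acads (-0.13), Hadhb (-0.16) and Etfa (-0.013 in both). With the length offset, without and with the block, it turned for Dlst (0.14 and 0.13), Suclg2 (0.021 and 0.022), Cpt1a (0.034 and 0.097), Cpt2 (-0.063 and -0.043), Acads (-0.054 and -0.053) and Etfdh (0.036 and 0.034). With 1 library left out, ranges crossed 0 for Ogdh (-0.33 to 0.014), Dlst (-0.079 to 0.029), Suclg1 (-0.12 to 0.24), Suclg2 (-0.059 to 0.029), Pdha1 (-0.15 to 0.031), Pdhx (-0.0087 to 0.20), Pdk1 (-0.35 to 0.031), Cpt1a (-0.44 to 0.092), Cpt2 (-0.26 to 0.29), Acads (-0.013 to 0.16) and Hadhb (-0.033 to 0.086). These 18 members had log2 fold changes of at most 0.21 in size.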
